A study of Mus musculus with 4 samples.

Results

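The genes described here are 35 members of 2 linked systems, glycolysis and the response of cells to low oxygen, in immortalized mouse embryonic fibroblasts with and without PTIP. PTIP is the product of Paxip1, a partner of histone methyltransferases. The members were given by name: 21 carriers, enzymes and regulators of glycolysis, and 14 factors, sensors and targets of the hypoxia response. Of the 35, 33 had a probe set named for them alone, out of 18193 such genes on the array, and each was read on its brightest one. Gpi1 and Eno1 were not analysed here. Of the 33, 32 were bright enough to be tested, 18 of glycolysis and 14 of hypoxia. Aldoc, a brain-type aldolase, was below the level filter and read 42.3 and 63.0 without PTIP and 26.0 and 74.1 in the control cells.

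All cells came from PTIP flox/flox fibroblasts, in which both copies of the gene carry recombination sites. PTIP -/- cells had received a retrovirus expressing Cre recombinase and PTIP +/+ cells the same vector without it, and growth was in serum with puromycin selection. The control cells are therefore floxed and infected too. Each genotype gave 2 RNAs, numbered 1 and 2, for 4 arrays. The labels do not say what a number stands for, so every p-value measures only the spread between these RNAs, and the number of arrays limits all precision.

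Glycolysis turns glucose into pyruvate in the cytosol, and cultured fibroblasts pass much of it on to lactate. When oxygen is short, the factors HIF-1 and HIF-2 are no longer hydroxylated and degraded. They then bind short DNA elements. Between them, though not each alike, they raise transcription of glucose carriers, nearly all glycolytic enzymes, and genes for blood vessel growth, collagen modification and mitophagy. HIF-1 alpha is known to be set mainly through the stability of its protein, so its transcript need not follow the activity of the pathway.

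The members had no common direction between the genotypes, and their levels followed the replicate number more than PTIP. With limma, 0 of 32 tested members passed at an adjusted p under 0.05, as did 0 of 12509 genes in all (0% called), and the adjusted p was 0.999 for every member. At an unadjusted p under 0.05 there were 0 members, against 0.943% of all genes lower and 1.34% higher. Over the 4 arrays the cells without PTIP were lower for 10 of 18 glycolysis members, whose median log2 difference was -0.046, and for 8 of 14 hypoxia members, with a median of -0.022. Of all genes 43.9% were lower, and their median was 0.05. With each array centred on its own median that value became -0.13 and 64.5% of all genes were lower, beside 14 of 18 and 11 of 14 members.

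The 2 replicate numbers gave opposite pictures. Between the arrays numbered 1, 22 of the 32 members (68.8%) were lower in PTIP -/-, against 46.3% of all genes. Between those numbered 2, 23 of the 32 (71.9%) were higher in PTIP -/-, against 54.4% of all genes. The median log2 difference of the hypoxia members was -0.29 in number 1 and 0.27 in number 2, where all genes had 0.03 and 0.05. The glycolysis members had -0.067 and 0.13. Centring takes 1 value from each array, so it moves all genes alike within a number. With centred arrays the number 2 medians were 0.0076 for glycolysis and 0.15 for hypoxia members, where all genes had -0.068. The glycolysis median in number 2 then lay close to 0. With or without centring, these medians lay 0.076 and 0.22 above that of all genes. In number 1 centring gave -0.30 and -0.53, where all genes had -0.20. Higher without PTIP in number 1 were 10 of 32, against 53.7% of all genes. At least 1.5-fold lower in number 1 were Hk2, Pdk1, Epas1, Adm, Bnip3 and Ankrd37, 6 of 32 against 6.1% of all genes. By the intensities as read, 7 of 32 were at least 1.5-fold higher in number 2, against 16.5% of all genes counted the same way. They were Slc16a3, Pfkl, Pfkfb3, Epas1, Egln3, Ankrd37 and Slc2a3, the last with both arrays below the level filter, so that its ratio cannot be read as a fold. Each of these sets 1 array against 1 array and carries no test.

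Lower in number 1 and higher in number 2 were 15 members, 46.9% of the 32, against 20.4% of all genes. They were Slc2a1, Slc16a3, Hk2, Pfkl, Aldoa, Tpi1, Pkm, Pfkfb4 and Pdk1 of glycolysis and Epas1, Bnip3, P4ha1, Ankrd37, Hilpda and Bhlhe40 of the hypoxia response. With quantile normalization and with centred arrays as well, 10 of the 15 kept both directions. The other 5, Aldoa, Tpi1, Pkm, Pfkfb4 and Pdk1, lay near 0 in one of the numbers and crossed it. Counted anew, the pattern held for 14 of 32 with quantile normalization, against 21.8% of all genes. With centred arrays it held for 16 of 32, against 27.8%. The reverse, higher in number 1 and lower in number 2, held for Pfkm and Eno2 alone, 2 of 32 against 19.8% of all genes. Members lower in both numbers were 7 (Pfkp, Pgk1, Ldha, Adm, Vegfa, P4ha2 and Ndrg1), 21.9% against 25.8% of all genes. Members higher in both were 8 (Slc2a3, Hk1, Pgam1, Pfkfb3, Hif1a, Egln1, Egln3 and Car9), 25% against 33.9%. The shares with the same direction in both numbers were thus no larger than among all genes. These directions rest on the brightest probe set. Of 16 members with several probe sets reaching the filter, 10 had all such sets on the same side within each number.

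**Figure D1:**
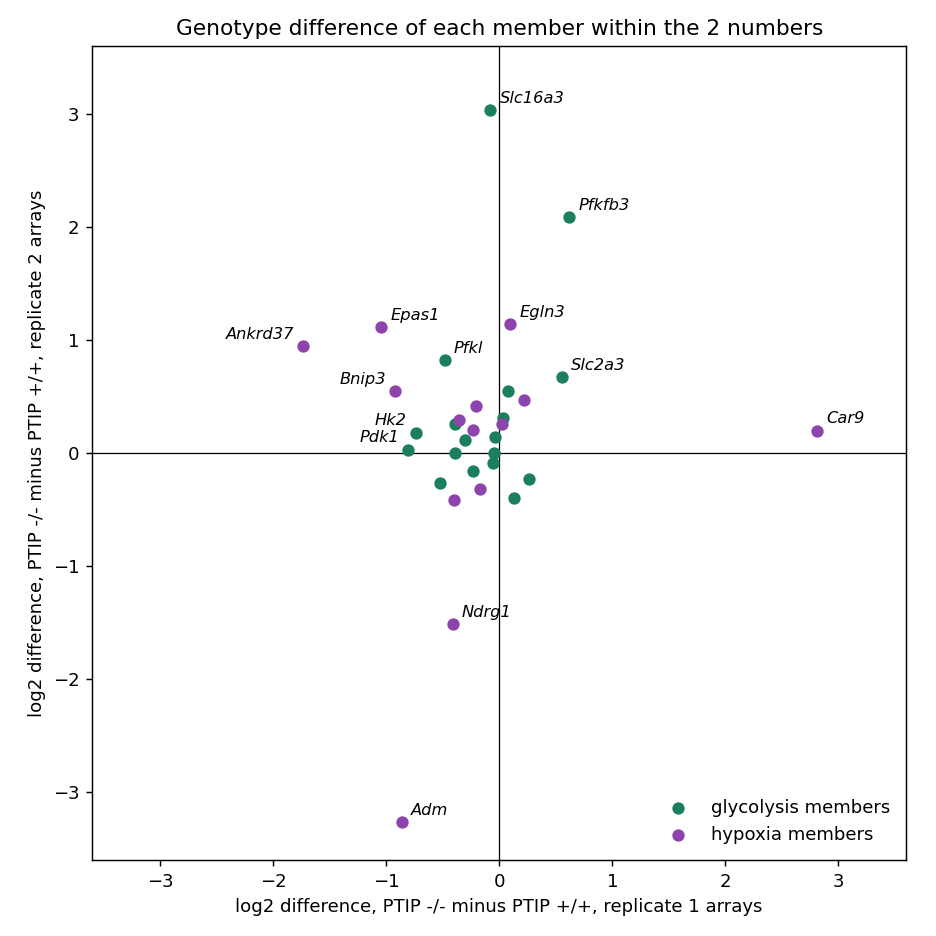
Log2 difference, PTIP -/- minus PTIP +/+, for the 32 tested members, within the replicate 1 arrays (horizontal axis) and within the replicate 2 arrays (vertical axis). Each point is 1 gene, coloured by class; 15 points lie at the upper left, lower in number 1 and higher in number 2, and Adm and Pfkfb3 lie at least 1.5-fold from 0 on the same side in both.

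Read array by array, PTIP +/+ replicate 1 stood highest and PTIP +/+ replicate 2 lowest. PTIP +/+ replicate 1 was the brightest of the 4 arrays for 20 of 32 members (62.5%), against 22.4% of all genes. PTIP +/+ replicate 2 was the dimmest for 21 of 32 (65.6%), against 32.8% of all genes. Both were true of 13 members (40.6%), against 10.2% of all genes. For those 13 genes the PTIP -/- arrays lay between the controls.

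The level also moved with the number in both genotypes. In 24 of 32 members (75%) replicate 2 was dimmer than replicate 1 in PTIP -/- and in PTIP +/+, against 38.1% of all genes. Among glycolysis members the median log2 difference, replicate 2 minus replicate 1, was -0.33 in PTIP -/- and -0.84 in PTIP +/+. Among hypoxia members it was -0.52 and -0.77. All genes had -0.042 and -0.027. The difference between the numbers was larger than that between the genotypes for 26 of 32 members (81.2%), against 63.4% of all genes.

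**Figure D2:**
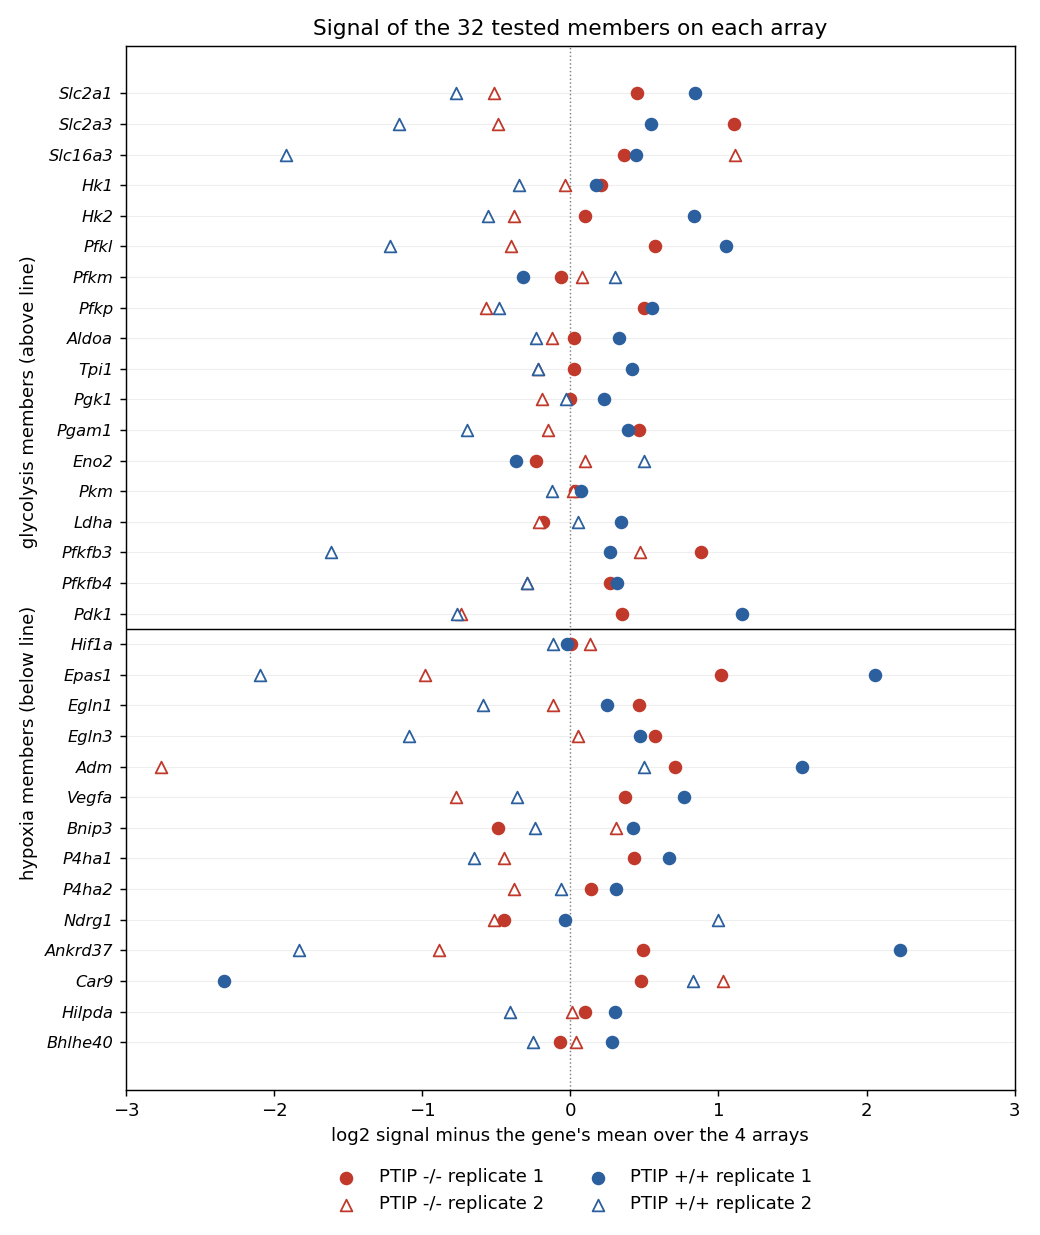
Log2 signal of each of the 32 tested members on each array, relative to the gene's mean over the 4 arrays (horizontal axis), 1 gene to a line, glycolysis above the line and hypoxia below. Red marks PTIP -/- and blue PTIP +/+, filled circles replicate 1 and open triangles replicate 2; for 24 genes both triangles lie to the left of the circle of their colour.

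**Figure D3:**
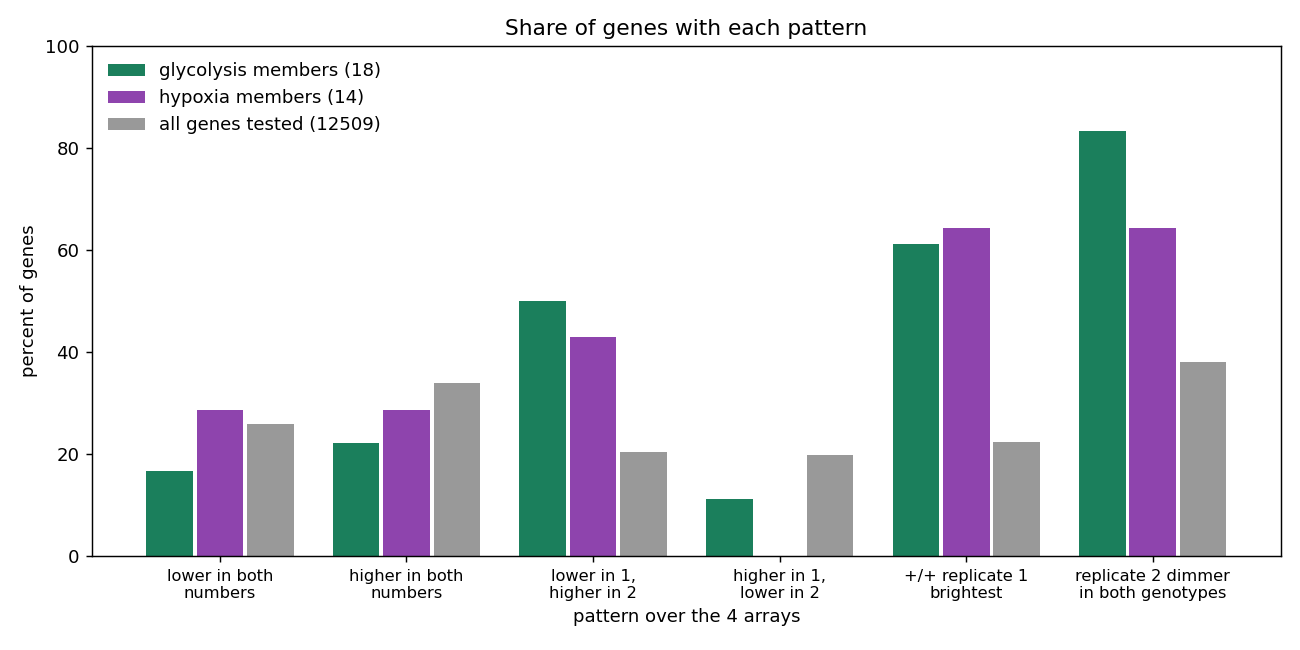
Percent of the 18 glycolysis members, the 14 hypoxia members and all 12509 tested genes that show each of 6 patterns over the 4 arrays. Bars are shares of genes and have no error; the members exceed all genes for lower in number 1 with higher in number 2, for a brightest PTIP +/+ replicate 1, and for a dimmer replicate 2 in both genotypes.

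Some markers of cell types moved with the number as well. Thy1, a surface marker of fibroblasts, read 14822.9 and 1500.7 without PTIP and 16080.1 and 239.2 in the control cells. Pdgfra, a growth factor receptor of mesenchymal cells, read 3563.4 and 174.2 against 5010.1 and 583.2. Thy1 and Pdgfra moved farthest of the 10 fibroblast markers. For the 10, the median log2 difference, replicate 2 minus replicate 1, was -0.066 in PTIP -/- and 0.14 in PTIP +/+. Fabp4, a fatty acid carrier of fat cells, read 16.1 and 4029.7 against 60.2 and 3351.8. The 10 fibroblast markers were all above the filter, with summed intensities of 184300 to 203200 in PTIP -/- and 213600 to 229300 in PTIP +/+, so the defining genes of the labelled cell type were present. Summed markers of epithelial, endothelial, blood and muscle cells were 223.7 to 954.4 on any array. Cdh1, Esrp1, Pecam1, Tie1, Vwf, Cd3e and Itgam were below the filter on all 4. Others of these lists were above the filter on all 4: Epcam (220.4 to 436.1), Krt8, Krt5, Kdr (107.0 to 172.0), Csf1r (218.1 to 278.2), Cd68, Adgre1, Des and Ckm (85.2 to 164.4). Of the fat cell markers, Adipoq, Lep and Cidec were below it on all 4. The part of these differences in the pattern of the members was not tested. In RNA of whole cultures, fewer cells of a kind and less RNA per cell cannot be told apart.

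Paxip1 itself read 43.5 and 74.6 without PTIP and 1029.5 and 1040.1 in the control cells, 13.9-fold lower in number 2 and at least 21.6-fold lower in number 1. With limma its unadjusted p was 0.000246 and its adjusted p 0.999. The fit thus did not call even the target of Cre, so an adjusted p of 0.999 does not show that a member was unchanged. The median intensity of the arrays ran from 75.8 to 97.8, highest in PTIP -/- replicate 1. The actin control gave 3' to 5' ratios between 1.07 and 1.21.

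The members' promoters were searched for the core letters of the HIF element, ACGTG and GCGTG, on both strands of the 300 bases from 250 before to 50 after each RefSeq start. Both strands read CACGTG, so it counts as 2 matches. Of 35 members, 31 had entries, with 46 promoters, and Slc2a3, Epas1, Ndrg1 and Bhlhe40 had none. At least 1 match lay in 37 of them (80.4%), against 43.8% of 32851 promoters of all genes and 49.3% of 21263 promoters of protein-coding genes. By class it was 25 of 33 for glycolysis (75.8%) and 12 of 13 for hypoxia (92.3%). Some promoters of a gene overlap, as for Eno1 and Aldoa, so the same match can count more than once. By gene, 28 of the 31 had a match, and all genes were counted by promoter only. Members' promoters were also richer in GC, with a median of 62.2% against 56.3% for protein-coding genes, and in CpG, 20 against 13. The part of this in the matches was not tested. Many members are on the list as known HIF targets, and a match says nothing of binding in these cells.

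The stretches below are shown because these members gave different patterns over the arrays and hold the letters upstream of their starts, and each runs 5′ to 3′ on the gene's strand, build GRCm38.p6, with the matched letters in capitals. Adm (chr7:110627557-110627616, plus strand) and Pfkfb3 (chr2:11502111-11502170, minus strand) are, on brightest probe sets, the members at least 1.5-fold lower and at least 1.5-fold higher in both numbers. Ankrd37 (chr8:45999972-46000031, minus strand) and Bnip3 (chr7:138909582-138909641, minus strand) crossed over. Ldha (chr7:46845733-46845792, plus strand) and Slc16a3 (chr11:120949007-120949066, plus strand) make and export lactate.
Adm: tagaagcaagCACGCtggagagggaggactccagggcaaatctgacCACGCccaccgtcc
Pfkfb3: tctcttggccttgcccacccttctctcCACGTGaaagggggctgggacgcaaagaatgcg
Ankrd37: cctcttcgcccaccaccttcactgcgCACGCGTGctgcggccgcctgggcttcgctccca
Bnip3: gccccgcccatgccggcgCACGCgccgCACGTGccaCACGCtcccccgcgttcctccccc
Ldha: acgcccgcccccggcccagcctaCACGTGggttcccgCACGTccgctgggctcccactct
Slc16a3: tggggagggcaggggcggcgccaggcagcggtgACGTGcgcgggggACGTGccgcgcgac

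The carriers admit glucose and release lactate. Slc2a1, the main glucose carrier of fibroblasts, read 2719.7 and 1394.8 without PTIP and 3574.6 and 1167.1 in the control cells. Its signal was lower in replicate 2 in both genotypes, and the genotypes overlapped. It was 1.31-fold lower without PTIP in number 1, then 1.20-fold higher in number 2 (log2 -0.069 ± 0.69, SE, over the 4 arrays), and both dimmer probe sets had the same sides. Slc2a3, a high-affinity glucose carrier, read 134.7 and 44.7 against 91.7 and 28.1. That put it 1.47-fold higher in number 1, while both arrays of number 2 lay below the filter and give no fold. Slc16a3, the lactate exporter MCT4, read 88.5 and 148.7 without PTIP and 93.4 and 18.2 in the control cells. Its difference rested on PTIP +/+ replicate 2, the 1 array below the filter. In number 2 it was at least 3.12-fold higher without PTIP, and in number 1 it was 1.06-fold lower (log2 1.48 ± 0.89, SE).

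The enzymes gave small differences between the genotypes. Of 12 tested, 8 were lower in PTIP -/- in number 1 and 5 in number 2, around medians of -0.14 and 0.058, and their differences over the 4 arrays ran from -0.39 to 0.31. Hk2, the inducible hexokinase that traps glucose in the cell, read 1007.9 and 724.3 against 1679.5 and 639.1. It was 1.67-fold lower without PTIP in number 1, then 1.13-fold higher in number 2 (log2 -0.28 ± 0.56, SE). Hk1, the constitutive hexokinase, was 1.02-fold higher in number 1, then 1.24-fold higher in number 2. The first side was lost with centred arrays.

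Phosphofructokinase commits sugar to glycolysis, and its 3 subunit genes did not move alike. Pfkl, the liver-type subunit, read 3532.2 and 1806.6 without PTIP and 4926.6 and 1023.6 in the control cells. That is 1.39-fold lower without PTIP in number 1, then 1.76-fold higher in number 2 (log2 0.17 ± 0.89, SE), with the same sides on its other probe sets. Within PTIP +/+ alone, Pfkl differed by -2.27 log2 between replicates 2 and 1. Pfkm, the muscle-type subunit, had the reverse order, 1.20-fold higher and then 1.17-fold lower. Pfkp, the platelet-type subunit, read 804.9 and 384.5 against 837.3 and 408.6, within 1.06-fold between the genotypes in both numbers. Its lower direction was not shared by all its probe sets.

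The tested later enzymes other than Eno2 were bright on every array, and all of those tested lay within 1.5-fold between the genotypes in both numbers. Ldha, which makes lactate from pyruvate, read 12078.7 and 11818.8 without PTIP and 17349.7 and 14225.4 in the control cells. It was lower on both PTIP -/- arrays than on either control array, by 1.44-fold in number 1 and 1.20-fold in number 2. On the log2 scale the mean was 13.54 ± 0.022 (SD, n = 2) without PTIP and 13.94 ± 0.20 (SD, n = 2) with it, a difference of -0.39 ± 0.26 (SE). Pgk1, the first enzyme to yield ATP, read 23732.3 and 20903.6 against 27884.3 and 23298.2, lower in both numbers by up to 1.18-fold. However, quantile normalization turned number 2 to 0.014, and a dimmer probe set gave -0.34 in number 1 and 0.57 in number 2. Pkm, pyruvate kinase, differed by 0.052 ± 0.25 (SE) and turned to -0.13 with centred arrays.

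Aldoa, the main aldolase, and Tpi1, which interconverts the triose phosphates, were 1.23-fold and 1.31-fold lower in number 1 and in number 2 Aldoa was 1.08-fold higher while Tpi1 differed by 0.00070 log2. Pgam1, the phosphoglycerate mutase, was 1.05-fold and 1.46-fold higher in the 2 numbers, the first of them lower with centred arrays. Eno2, the neuronal enolase, read 138.8 and 175.1 against 126.7 and 230.8 and differed by -0.13 ± 0.40 (SE). Gapdh shared its named probe sets with other genes, and the array's 3 control probe sets for it differed by -0.14 to -0.023 within the numbers.

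The regulators steer the pathway from outside the main chain. Pfkfb3 makes fructose 2,6-bisphosphate, a strong activator of phosphofructokinase. On brightest probe sets it was the 1 glycolysis member at least 1.5-fold apart in the same direction in both numbers. As far higher in both were 3.43% of all genes. Pfkfb3 read 348.7 and 261.3 without PTIP and 227.2 and 61.6 in the control cells. Both arrays without PTIP lay above both controls, by 1.53-fold in number 1 and 4.24-fold in number 2. On the log2 scale the mean was 8.24 ± 0.29 (SD, n = 2) without PTIP and 6.89 ± 1.33 (SD, n = 2) with it, a difference of 1.35 ± 0.71 (SE) with limma (adjusted p = 0.999). A dimmer probe set gave 0.019 and 0.66.

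Its relative Pfkfb4 read 344.3 and 233.3 against 356.2 and 232.8, close to equal in both numbers. Pdk1 is a kinase that keeps pyruvate out of the mitochondrion. It read 535.2 and 252.0 against 935.8 and 246.8, 1.75-fold lower without PTIP in number 1, then 1.02-fold higher in number 2. Its numbers lay farther apart than its genotypes, and its mean over probe sets turned from -0.39 to 0.18. That mean includes a probe set below the filter, at 21.0 and 18.0 against 18.6 and 4.4 (log2 1.10). The probe sets that reached the filter gave -0.39, -0.14 and 0.13.

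The sensors and factors of the hypoxia system were higher without PTIP in number 2, 4 of 4, against 54.4% of all genes. Hif1a, the oxygen-labile subunit of HIF-1, read 4130.8 and 4525.8 without PTIP and 4062.0 and 3796.3 in the control cells. Both arrays without PTIP lay above both controls, by 1.02-fold and 1.19-fold (log2 0.14 ± 0.25, SE), but centred arrays gave -0.039 and its dimmer probe sets did not all share these sides. In all, 2 of 32 members, Pfkfb3 and Hif1a, had groups that did not overlap on the higher side, against 16.6% of all genes. On the lower side there were Ldha and Ndrg1, 2 of 32 against 12.1%.

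Epas1, the HIF-2 alpha subunit, was at least 2-fold lower in number 1, then at least 2-fold higher in number 2, the 1 member to do so (0.192% of all genes). It read 717.9 and 179.6 without PTIP and 1478.0 and 83.0 in the control cells. The control arrays were the highest and the lowest of the 4. The difference was 2.06-fold lower in number 1, then 2.16-fold higher in number 2, which average to 0.036 ± 1.61 (SE) log2. A second probe set, at 88.5 and 8.2 against 159.1 and 20.7, was below the filter on both arrays numbered 2 and lower in number 1 by 0.85 log2. The opposite side in number 2 thus rests on 1 probe set.

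The prolyl hydroxylases mark HIF for degradation and are themselves induced by it. Egln1, the main one, read 2228.3 and 1491.5 against 1919.2 and 1074.1, higher by 1.16-fold and 1.39-fold. Egln3 read 296.6 and 206.7 against 277.1 and 93.9, higher by 1.07-fold and 2.20-fold. The number 1 side of both turned below 0 with centred arrays, and a second probe set of Egln3 gave 0.62 and -0.020.

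Adm, which encodes the vasodilator peptide adrenomedullin, had the largest difference of the 32 members over the 4 arrays. It read 3077.3 and 277.1 without PTIP and 5577.0 and 2657.7 in the control cells. Each PTIP -/- array lay below the control array of its number, by 1.81-fold in number 1 and 9.59-fold in number 2, while the genotypes as groups overlapped. On brightest probe sets it was the 1 member at least 1.5-fold lower in both numbers, as were 2.21% of all genes. In number 2, 31 of 12509 genes lay as far or farther on the lower side, and in number 1, 416. On the log2 scale the mean was 9.85 ± 2.46 (SD, n = 2) without PTIP and 11.91 ± 0.76 (SD, n = 2) with it, a difference of -2.06 ± 1.28 (SE). Its second probe set gave -0.80 and -3.39. Dimmer probe sets of Ndrg1 and Vegfa were also at least 1.5-fold lower in both numbers.

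Ndrg1, a stress-induced protein that restrains growth, was lower on all 5 of its probe sets in both numbers. The brightest read 350.3 and 333.4 without PTIP and 465.4 and 952.8 in the control cells, with no overlap. That is 1.33-fold lower in number 1, then 2.86-fold lower in number 2, a difference of -0.96 ± 0.43 (SE) that had the smallest unadjusted p of the members, 0.0867 with limma (adjusted p = 0.999). Unlike most members it was brighter in replicate 2 of the control cells. Its other probe sets differed by -1.51 to -0.82 over the 4 arrays. Among them, 1 gave -1.06 in number 1 and -1.21 in number 2, and another -1.22 and -1.80. Vegfa, the growth factor of blood vessels, read 808.2 and 366.2 against 1066.9 and 488.2. It was 1.32-fold lower in number 1, then 1.33-fold lower in number 2, and a dimmer probe set was lower by 0.78 and 1.15 log2.

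Ankrd37, a small ankyrin protein and direct HIF target, followed the pattern of Epas1. It read 278.1 and 106.9 without PTIP and 925.9 and 55.5 in the control cells. It was 3.33-fold lower without PTIP in number 1, then 1.93-fold higher in number 2, and the control cells alone differed by -4.06 log2 between replicates 2 and 1. At least 1.5-fold in these opposite directions were 2 of 32 members, Epas1 and Ankrd37, against 1.03% of all genes. Bnip3, a mitophagy receptor, read 1049.8 and 1824.0 against 1982.7 and 1250.1. That is 1.89-fold lower in number 1, then 1.46-fold higher in number 2. Unlike Ankrd37 it was brighter in replicate 2 of the cells without PTIP.

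Car9, a surface carbonic anhydrase, read 102.4 and 150.5 against 14.6 and 131.1. Only PTIP +/+ replicate 1 was below the filter, which made it at least 2.15-fold higher without PTIP in number 1, then 1.15-fold higher in number 2. The array where Car9 was dimmest was the one where Ankrd37 was brightest.

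The remaining targets differed by less than 1.4-fold in either number. The collagen prolyl hydroxylase subunits P4ha1 and P4ha2 read 4678.8 and 2545.4 against 5500.0 and 2204.0, and 1774.1 and 1236.7 against 1996.5 and 1542.3. P4ha1 changed sides between the numbers and P4ha2 was lower by 1.13-fold and 1.25-fold. Hilpda, a lipid droplet protein, and Bhlhe40, a repressor of the clock and of differentiation, were 1.15-fold and 1.28-fold lower in number 1 and 1.34-fold and 1.22-fold higher in number 2.

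**Figure D4:**
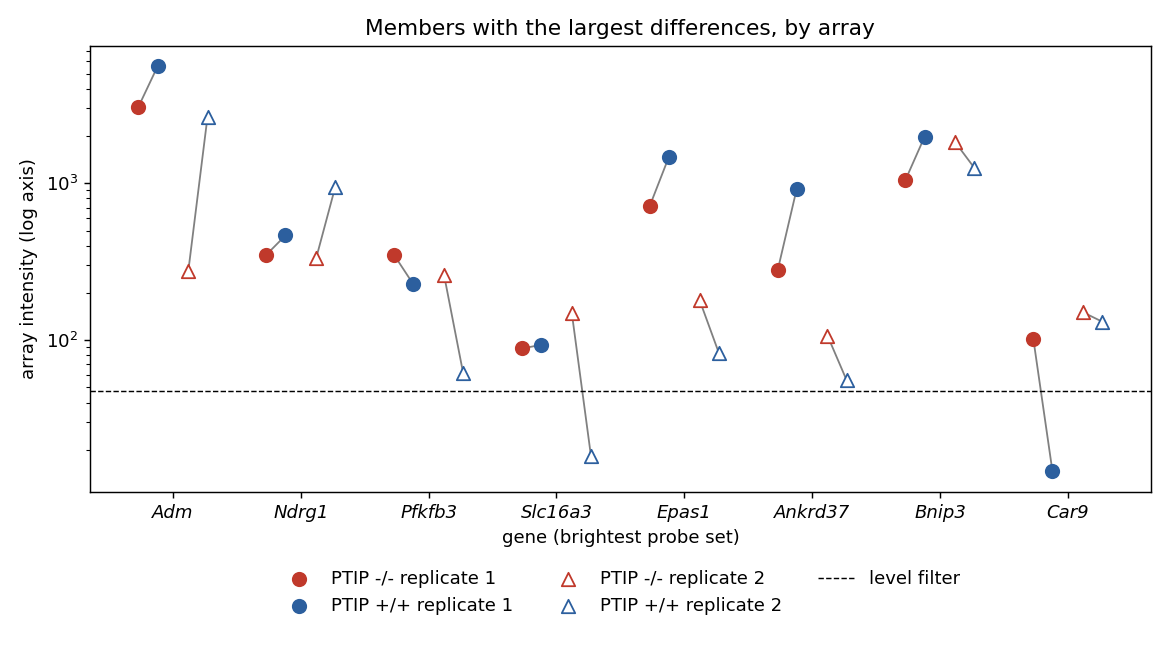
Array intensity on a log axis for 8 of the members with wide differences, in PTIP -/- (red) and PTIP +/+ (blue), replicate 1 (filled circles) and replicate 2 (open triangles), with a line joining the arrays of a number and a dashed line at the level filter of 47.68. Adm and Ndrg1 are lower in PTIP -/- in both numbers, Pfkfb3 is higher in both, and Epas1, Ankrd37 and Bnip3 cross over.

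Further genes of the same systems, from lists other than the 35, are given by their counts. Of 28 other hypoxia targets tested, 11 were lower in number 1 and higher in number 2 (39.3% against 20.4% of all genes), PTIP +/+ replicate 1 was brightest for 14 (50% against 22.4%), and 18 were dimmer in replicate 2 in both genotypes (64.3% against 38.1%). Number 1 gave them a median of -0.11 and number 2 a median of 0.29. Ddit4, an inhibitor of mTORC1 signalling, read 582.3 and 137.4 against 1074.8 and 106.2. Ak4, a mitochondrial adenylate kinase, read 564.7 and 130.4 against 1233.6 and 104.7. Ero1a, an oxidase of the endoplasmic reticulum, read 2084.2 and 2530.1 against 3482.6 and 1774.9. These 3 were chosen after their values were seen.

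At least 1.5-fold apart in the same direction in both numbers were Flt1 and Rora of these 28 targets. Flt1 was the 1 lower (3.57% against 2.21% of all genes) and Rora the 1 higher (3.57% against 3.43%). Flt1, a receptor for Vegfa, read 125.4 and 59.6 without PTIP and 619.3 and 241.5 in the control cells. It was 4.47-fold lower over the 4 arrays (log2 -2.16 ± 0.65, SE, limma adjusted p = 0.999), and its other probe sets differed by -4.43 to -1.10. Rora, a nuclear receptor, was 1.70-fold higher (log2 0.76 ± 0.90, SE). Its other probe sets differed by 0.17 to 1.48 over the 4 arrays, but the lowest in number 2 gave -0.48. Of 17 other glycolysis genes tested, 7 were lower and 10 higher, with medians of 0.16 and 0.045 in the 2 numbers, and 0 were 1.5-fold apart in the same direction in both. Lower in number 1 and higher in number 2 were 4 of these 17 (23.5%, against 50% of the glycolysis members and 20.4% of all genes), and 6 (35.3%) had the reverse order, against 19.8%. PTIP +/+ replicate 1 was brightest for 4 of them (23.5% against 22.4%), and 10 were dimmer in replicate 2 in both genotypes (58.8% against 38.1%). Of 13 genes that control HIF, 7 were lower and 6 higher, with medians of 0.062 and -0.035 in the 2 numbers. On brightest probe sets Hif3a, read at 336.5 and 303.8 against 308.2 and 87.6, was the farthest. Its other probe sets disagreed, from -0.95 to 1.34 over the 4 arrays. Lower in number 1 and higher in number 2 were 0 of the 13. PTIP +/+ replicate 1 was brightest for 1 (7.69%), and 4 were dimmer in replicate 2 in both genotypes (30.8%). Arnt, the partner of both HIF alpha subunits, read 692.4 and 459.8 against 534.2 and 387.3, and Vhl, which targets them for degradation, 620.1 and 782.3 against 594.1 and 657.4. Other probe sets of Arnt ran from -0.62 to 0.86 over the 4 arrays. With limma 0 of these genes passed.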

How the data were processed

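The 4 fibroblast RNAs were measured on Affymetrix arrays. The authors deposited linear intensities of 45101 probe sets per array. RMA is the tool given by the submitters' processing notes, without a version. The deposited intensities are linear, hold a 0 and share a mean of 500 after the top and bottom 2% are left out, which is not its usual output, so how background was corrected and probes summarised is not stated.

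The 0 was set to 0.1 and values taken to log2. Without the 64 control probe sets, 34945 carried 1 symbol, 932 several and 9160 none, and 34741 probe sets were matched by gene number to RefSeq's table of GRCm38.p6. Each of 18193 genes took its brightest probe set, and the 12509 whose mean reached the 40th percentile of probe-set means, 47.68, were tested. There are no detection calls, so 47.68 also bounds a fold ("at least") where the dimmer side lies below it.

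All 4 arrays entered a limma 3.58.1 fit (R 4.3.3) of the genotypes without covariates, with 2 residual degrees of freedom. Adjustment was by Benjamini-Hochberg over 12509 genes. The code of the fit was run on simulated data with small noise, independent between arrays. These arrays spread more and same-numbered ones deviated together, so that run does not bear on their p-values. With 2 arrays a group, exact permutation p-values stop at 0.333. Full values go to members 1.5-fold apart in the same direction in both numbers, members 2-fold apart in opposite directions, Slc2a1, Hk2, Ldha, Slc16a3, Hif1a, Epas1 and Vegfa; other members described at length, among them Ndrg1, Ankrd37, Bnip3, Car9 and Pfkl, were chosen after their values were seen. The members and lists were chosen with earlier results of these data known. Alternatives were other scalings, filters, probe sets and variance models, the replicate number as a block, and each array left out.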

Additional observations from a re-analysis of the deposited data

How the results depend on the processing

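With limma 0 genes were called under every alternative run, and the lowest adjusted p of a member was 0.601, with the replicate block. Slc16a3, Pgk1, Ldha, Pfkfb3, Adm and Ndrg1 kept their side of 0 over the 4 arrays under every alternative run for them, but not their size. Without 1 array Slc16a3 ran from 0.30 to 2.66, Pgk1 from -0.32 to -0.065, Ldha from -0.54 to -0.25, Pfkfb3 from 0.41 to 2.29, Adm from -3.80 to -0.32 and Ndrg1 from -1.48 to -0.45. With signals raised to the level filter Slc16a3 was 0.78, and the second-brightest probe set put Pfkfb3 at 0.34. Quantile normalization turned Epas1 to -0.060 and P4ha1 to 0.022 (log2). Centring the arrays, which moved the median of all genes from 0.05 to -0.13, turned Hk1 to -0.0040, Pfkl to -0.0079, Pfkm to -0.16, Pkm to -0.13, Hif1a to -0.039, Epas1 to -0.14 and Hilpda to -0.070. It moved the glycolysis median to -0.22, within number 1 to -0.30 and within number 2 to 0.0076, and the hypoxia median within number 2 to 0.15. The medians of all genes moved by the same amounts, to -0.20 within number 1 and -0.068 within number 2. Averaging all probe sets of a gene turned Slc2a1 to 0.098, Pdk1 to 0.18 and Epas1 to -0.53 and moved the glycolysis median within number 1 to -0.23. For Pdk1 and Epas1 the average includes a probe set below the level filter. The second-brightest probe set turned Slc2a1 to 0.15 and Pfkp to 0.20. Apart from the shift that centring gives to all genes alike, the cause of these changes was not tested. The alternatives within the numbers and for the brightest array were chosen after seeing the data.

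Leaving out 1 array leaves the numbers unequal between the genotypes, and the lone array is assumed to vary like the others. The glycolysis median then ran from -0.33 (without PTIP +/+ replicate 2) to 0.43 (without PTIP +/+ replicate 1), and 4 to 14 of its members were lower. The hypoxia median ran from -0.44 to 0.21 without the same arrays, and 4 to 12 of its members were lower. Of 32 members 25 changed side. Their ranges in log2 were Slc2a1 -0.88 to 0.74, Slc2a3 -0.24 to 1.47, Hk1 -0.087 to 0.43, Hk2 -0.98 to 0.42, Pfkl -0.96 to 1.30, Pfkm -0.30 to 0.33, Pfkp -0.61 to 0.46, Aldoa -0.38 to 0.19, Tpi1 -0.51 to 0.12. Further ranges were Pgam1 -0.23 to 0.86, Eno2 -0.57 to 0.30, Pkm -0.049 to 0.15, Pfkfb4 -0.33 to 0.28, Pdk1 -1.35 to 0.57, Epas1 -2.04 to 2.11, Egln1 -0.074 to 0.76, Egln3 -0.16 to 1.40. The rest were Vegfa -0.98 to 0.16, Bnip3 -0.58 to 0.21, P4ha1 -0.67 to 0.65, P4ha2 -0.50 to 0.016, Ankrd37 -2.42 to 1.64, Car9 -0.079 to 3.09, Hilpda -0.25 to 0.46, Bhlhe40 -0.30 to 0.24.

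Same-numbered arrays deviated together from their group means (r = 0.686 across 12509 genes, which are not independent), but with 2 pairs and no word in the labels they share only a number. With the replicate block 0 genes were called, the medians stayed at -0.046 and -0.022, and 10 and 8 members were lower. Signals near 47.68 limit Slc2a3, Slc16a3 and Car9. They also limit the number 2 differences of Ankrd37 and Pfkfb3, where PTIP +/+ replicate 2 read 55.5 and 61.6.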

Other observations

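Genes of 3 neighbouring pathways were tested as well, and 0 of them passed with limma, at an unadjusted p under 0.05 too. Of 7 pentose phosphate genes, 6 were lower without PTIP in number 1 (85.7% against 46.3% of all genes) and 4 in number 2 (57.1% against 45.6%). Lower in number 1 and higher in number 2 were 2 of the 7 (28.6% against 20.4% of all genes). PTIP +/+ replicate 1 was brightest for 5 of the 7 (71.4% against 22.4%). Dimmer in replicate 2 in both genotypes were 5 as well (71.4% against 38.1%). These 2 shares were near those of the members, 62.5% and 75%. Rpia, which makes ribose 5-phosphate, read 998.8 and 805.5 without PTIP and 1566.2 and 1360.6 in the control cells. Both arrays without PTIP lay below both controls, and the difference was -0.70 ± 0.27 log2 (SE, limma adjusted p = 0.999).

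Of 11 genes for pyruvate entry into mitochondria, 0 were lower in number 1 and higher in number 2, against the same 20.4%. PTIP +/+ replicate 1 was brightest for 2 (18.2%), and 3 were dimmer in replicate 2 in both genotypes (27.3%). Pdk2, a kinase that switches pyruvate dehydrogenase off, read 109.4 and 263.5 against 62.3 and 132.7. Pdp1, a phosphatase that switches it on, read 257.8 and 461.7 against 387.6 and 1588.5. Pdk2 was thus higher and Pdp1 lower without PTIP in both numbers, while both were brighter in replicate 2. Their relatives went the other way in both numbers: Pdk3 (-0.20 and -0.28 log2) and Pdk4 (-1.44 and -0.31) were lower and Pdp2 (0.31 and 0.63) higher. Pdk2, Pdp1, Rpia and Pygb are named for being at least 1.5-fold apart in the same direction in both numbers. Of all genes 2.21% were as far lower and 3.43% as far higher. Of 5 glycogen genes tested, 2 were lower in number 1 and higher in number 2 (40%). PTIP +/+ replicate 1 was brightest for 1 (20%), and 1 was dimmer in replicate 2 in both genotypes (20%). Pygb, a glycogen phosphorylase, was 1.91-fold and 1.92-fold higher without PTIP in the 2 numbers, at 1190.5 and 1781.6 against 623.3 and 926.0.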
